A study of Mus musculus with 26 samples.

Results

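Granulocyte-monocyte progenitors (GMPs) and common myeloid progenitors (CMPs) of wild-type mice were compared across the whole transcriptome. The 8 libraries compared, 4 of GMPs and 4 of CMPs, are 8 of the 26 in the series and were taken by the genotype and cell type given in the sample labels. The series examined neutrophil serine protease 4 (NSP4), the product of Prss57, in myeloid progenitors and mast cells. All animals behind these libraries were female, and the wild-type mice were littermates of Prss57-/- mice. The study's flow cytometry of bone marrow used young adult mice, but the age of the animals behind these libraries and the number per library are not given in the sources used here. The study calls its GMP samples biological replicates. GMPs were sorted from bone marrow as lineage-negative, SCA-1-negative, CD117-positive, CD34-positive cells with high CD16/32 staining, and CMPs as the same cells with low CD16/32 staining. Neither group carried a transgene or received a treatment. The 8 libraries came from the same sequencing run and pool. A further 4 GMP and 4 CMP libraries of Prss57-/- mice were prepared in the same way and sequenced in the same run. They were used for the same comparison in Prss57-/- mice and for a test of genotype with cell type. They also entered 1 alternative fit of the wild-type difference.

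CMPs stand near the top of the myeloid hierarchy. As a population they give rise to granulocytes and monocytes by way of GMPs, and to erythrocytes and megakaryocytes by way of another progenitor that has lost CD34. GMPs are known for the synthesis of primary granule proteases, which are packed into azurophil granules at the promyelocyte stage, before the secondary granule proteins appear. The balance between GATA1 and the pair of PU.1 and C/EBPα is a textbook switch between these branches. In bulk RNA of sorted cells, a smaller share of cells with a transcript and less of that transcript per cell cannot be told apart.

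The GMP libraries held between 42906128 and 51497962 reads on genes and the CMP libraries between 34203564 and 48033489. Levels are given below as normalized RPKM, reads scaled to exon length and sequencing depth and then divided by a size factor, with 4 values standing for replicates 1 to 4 and a range for the lowest and the highest library. Spearman correlations across the 14967 genes tested lay between 0.980 and 0.995 within GMPs, between 0.981 and 0.993 within CMPs, and between 0.925 and 0.961 for a GMP with a CMP library. GMP library 1 and CMP library 3 stood apart from their groups. The slope of log2 expression on exon length was -0.10 in GMP library 1 against 0.10 to 0.14 in the other GMP libraries. In CMP library 3 it was 0.10, against -0.14 to -0.11 in the other CMP libraries. Without both libraries, an alternative chosen after the data were seen, the count of called genes of each list below moved by at most 3 in either direction, and named genes whose call was then lost are given as such.

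Among the genes of the sorting antigens, Kit (CD117) was at 40.7, 59.4, 54.1 and 55.5 in GMPs and 56.7, 51.5, 69.6 and 51.7 in CMPs, and Cd34 at 244 to 285 and 307 to 338. Fcgr3, 1 of the genes behind the CD16/32 gate, was at 266 to 382 in GMPs and 13.5 to 38.5 in CMPs, a difference that the sort itself set. Ly6a, which encodes SCA-1, was at 1.17 to 1.97 and 2.46 to 4.18, and without GMP library 1 it was called higher in CMPs with a log2 fold change of -1.05 (edgeR adjusted p = 0.0087). Of 7 lineage antigens used for depletion, 3 could be tested, and Itgam (CD11b) and Ly6g were higher in GMPs, at 1.6 to 2.14 against 0.391 to 0.666 and 0.902 to 0.999 against 0 to 0.13. Cd3e was at 0 to 0.0113 in GMPs and 0 to 0.0399 in CMPs. The summed level of 8 T and NK cell markers was 0.633 to 0.889 in GMPs and 1.47 to 2.63 in CMPs. Of the 4 that could be tested, the NK cell receptors Klrd1 and Klrb1c were higher in CMPs, at 0.508 to 1.59 and 0.234 to 0.578. Their calls were lost with single libraries left out, that of Klrd1 without CMP library 1, CMP library 2 or GMP library 4, with edgeR adjusted p up to 0.0142, and that of Klrb1c without any 1 of CMP libraries 1, 2 and 4 or GMP libraries 2 and 3, with edgeR adjusted p up to 0.012. Neither was called in Prss57-/- mice. Of 5 B cell markers, 2 could be tested and none was called. Among 8 markers of stroma and endothelium, Cdh5, Col3a1 and Lepr were at or near 0. Col1a1, a fibroblast collagen, was at 0.0248 to 3.59 in CMPs with its highest value in library 2, and at 0 to 0.111 in GMPs. Col1a2 and the endothelial receptor Kdr were called higher in CMPs, at 0.784 to 4.37 and 0.522 to 0.717, and Vcam1 was higher in GMPs. The part of such cells in the results below was not tested.

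Between GMPs and CMPs, 1918 of 14967 genes tested were called, that is 12.8%. A gene was called where it differed 2-fold or more and its edgeR quasi-likelihood p, adjusted after Benjamini and Hochberg, was below 0.01. Of the genes called, 940 (6.28% of those tested) were higher in GMPs and 978 (6.53%) in CMPs. The median log2 fold change of all genes tested, GMP over CMP, was -0.0236. Scaled by library size alone, 764 genes were higher in GMPs and 1228 in CMPs, and the median of all genes was -0.16. Without GMP library 1 and CMP library 3, 1588 genes were higher in GMPs and 1583 in CMPs. Of the genes called, which were chosen by the same comparison, 53 had overlapping groups. Of all 14967 genes tested, called or not, 2297 had every GMP library above every CMP library, and 2411 the reverse.

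Differences of at least 16-fold were found for 106 genes higher in GMPs and 149 higher in CMPs, and differences of at least 64-fold for 38 and 25. The genes higher in GMPs took up 14.7% to 15.5% of all reads of the GMP libraries and 3.53% to 5.19% of those of the CMP libraries. The genes higher in CMPs took up 3.77% to 4.67% of the CMP reads and 0.937% to 1.22% of the GMP reads. Mpo, which encodes myeloperoxidase, alone took up 3.87% to 4.20% of the reads in GMPs and 0.604% to 1.07% in CMPs. These shares describe genes chosen by the same comparison.

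**Figure D1:**
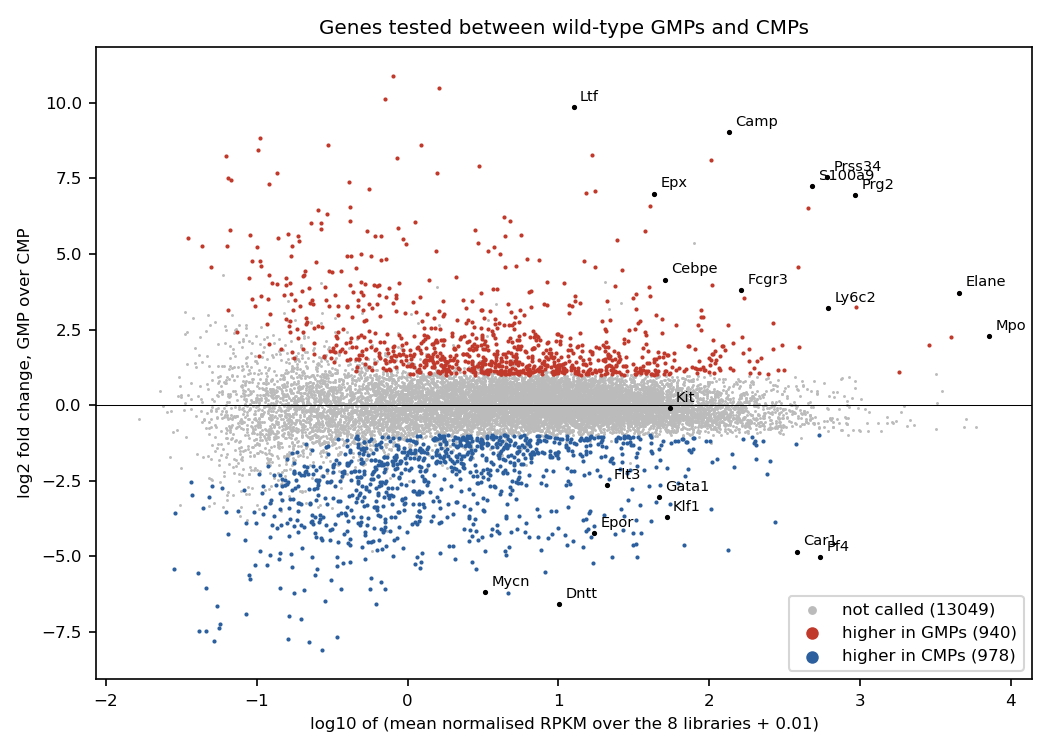
Log2 fold change of GMPs over CMPs against the level of each gene, as log10 of the mean normalized RPKM of the 8 libraries plus 0.01, for the 14967 genes tested. Red points are the 940 genes higher in GMPs and blue points the 978 higher in CMPs. Labelled genes are in black. The most abundant genes that differed, Mpo and Elane, lie on the GMP side, and Pf4 and Car1 on the CMP side.

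Primary granule genes were mostly higher in GMPs. Of 12 genes in this list, 8 were higher in GMPs and none in CMPs, with a median log2 fold change of 1.85 beside -0.0236 for all genes. Elane, which encodes neutrophil elastase, was at 10876, 7423, 7989 and 7664 in GMPs and at 248, 545, 681 and 1127 in CMPs. All GMP libraries were above all CMP libraries, and CMP library 1 was the lowest. The log2 fold change was 3.72 (SE 0.40, edgeR adjusted p = 6.6e-05). Mpo was at 12147, 12309, 11720.4 and 11772 in GMPs and 1688, 2344, 2791 and 3091 in CMPs, with a log2 fold change of 2.29 (SE 0.19, edgeR adjusted p = 1.04e-05). Here the GMP libraries lay close together and the CMP libraries spread more widely. Prtn3 (proteinase 3) had a log2 fold change of 2.26, Ctsg (cathepsin G) of 2.00, and Ms4a3, a membrane protein of early granulocytic cells, of 3.23. Without GMP library 1 and CMP library 3, Ms4a3 missed the threshold, with a log2 fold change of 2.97 (edgeR adjusted p = 0.0132). Prss57 was at 198, 133, 125 and 123 in GMPs and 17.1, 26.9, 17 and 32 in CMPs, a log2 fold change of 2.66.

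The other members of the list differed less. Cd63, a granule membrane tetraspanin, and Calr, the chaperone calreticulin, had log2 fold changes of 1.70 and 1.08. Without CMP library 1 the value of Calr was 0.99, below the fold limit, and with library size alone as the scaling it was 0.95. Ctsc, the protease that activates the serine proteases, was at 21.3 to 27.9 in GMPs and 13.6 to 15.4 in CMPs, a log2 fold change of 0.82 that was below the fold limit. Srgn, the proteoglycan core of granules, and Serpinb1a, an elastase inhibitor, were also below it at 0.88 and 0.94. Serpinb1a was called without CMP library 4, GMP library 3 or GMP library 4, with 1.07, 1.03 and 1.01. With the length slope as a covariate both genes were called higher in GMPs, Srgn with 1.19 and Serpinb1a with 1.27. The same held with a length trend as an offset, with 1.13 and 1.18. Srgn was at 1396, 864, 854 and 831 in GMPs and 585, 573, 422 and 589 in CMPs, with GMP library 1 the highest. Bpi, a bactericidal protein, was hardly read and was not called. The 4 proteins of azurophil granules with the highest levels were read in CMPs too, Elane at 248 to 1127, Prtn3 at 964 to 2108, Ctsg at 912 to 1678 and Mpo at 1688 to 3091.

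Elane and Prtn3 are neighbours on chromosome 10 (GRCm38, Prtn3 from 79874476 to 79883174 and Elane from 79886247 to 79888215). The bases before their start sites are shown because both hold the letters AGGAAGT, a site read by PU.1 and other ETS factors, in capitals. The sequences are from RefSeq for GRCm38.p6, forward strand, at chr10:79886062-79886246 and chr10:79879417-79879613, and hold no base of an annotated exon. The GENCODE annotation has transcripts of Elane and of Prtn3 that begin upstream of the RefSeq start. The bases shown stop before the first annotated exon that reaches into the window, and those of Prtn3 lie within the span of the gene given above.
Elane: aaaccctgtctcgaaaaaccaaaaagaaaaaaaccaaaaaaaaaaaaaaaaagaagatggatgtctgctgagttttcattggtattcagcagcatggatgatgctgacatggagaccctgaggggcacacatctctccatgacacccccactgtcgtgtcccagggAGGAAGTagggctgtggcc
Prtn3: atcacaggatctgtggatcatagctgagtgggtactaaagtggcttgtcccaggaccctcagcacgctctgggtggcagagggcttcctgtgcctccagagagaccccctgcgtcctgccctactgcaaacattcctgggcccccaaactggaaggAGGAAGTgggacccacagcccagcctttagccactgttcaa
In windows from 250 bases before to 50 after the start, read on both strands, AGGAAGT was found for 5 of the 10 primary granule genes with a RefSeq window, namely Mpo, Elane, Prtn3, Ctsg and Ctsc. It was also found for 7 of 12 monocyte, 5 of 12 lymphoid and 5 of 14 late neutrophil genes with a window. Of 11 mast cell and basophil genes it was found for 0. It was found for 15.0% of 688 genes higher in GMPs, 9.76% of 717 genes higher in CMPs and 11.1% of 10145 genes tested that had a window. Over all 27025 genes with a window the share was 10.7%. These are matches of letters and were not tested.

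Genes of later neutrophil maturation were mostly higher in GMPs. Of 16 genes for secondary and tertiary granules and other late neutrophil products, 12 were higher in GMPs and none in CMPs, with a median log2 fold change of 6.15, or 5.94 with 1 gene that CMPs had no read of, Itgb2l, at its lower bound. Camp, which encodes the antimicrobial peptide cathelicidin, was at 377, 248, 167 and 286 in GMPs and at 0.34, 0.436, 0.458 and 0.874 in CMPs. The log2 fold change was 9.04 (SE 0.36, edgeR adjusted p = 4.14e-07). Ltf (lactoferrin) was at 19.6, 33.1, 17.6 and 30.6 and 0.023, 0, 0.0395 and 0.0438, with 7 reads at most in any CMP library, and a fitted log2 fold change of 9.87 (SE 0.45, edgeR adjusted p = 5.13e-07). Both genes were near 0 in CMPs, and their levels in GMPs were lowest in library 3. 

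S100a8 and S100a9, the subunits of calprotectin, were the most abundant of the list. S100a9 was at 1358, 926, 599.5 and 961 in GMPs and 7.56, 5.66, 2.66 and 10.2 in CMPs, and S100a8 at 1340.3, 779, 582 and 866 and 7.46, 6.72, 6.92 and 18.1. Their log2 fold changes were 7.24 and 6.53. Ngp, neutrophilic granule protein, had a log2 fold change of 8.10, Chil3, a chitinase-like protein, of 8.28, Fcnb (ficolin B) of 7.02 and Lcn2 (lipocalin 2) of 5.76. Pglyrp1, a peptidoglycan recognition protein, and Hp (haptoglobin) were already at 8.9 to 18.3 and 42 to 104 in CMPs and had log2 fold changes of 3.97 and 2.73. Itgb2l, a β2-like integrin, had no read in any CMP library and 168 to 389 reads in the GMP libraries. Against a floor of 3 reads per CMP library it was at least 69.9-fold higher in GMPs, a bound that covers counting error only.

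The other 4 genes of the list were not called. Mmp8 (neutrophil collagenase), Padi4 and the chemokine receptor Cxcr2 had log2 fold changes of 0.40, 0.20 and 0.30, with overlapping groups. Mmp9 (gelatinase B) was at 0.336 to 0.733 in GMPs and 0 to 0.165 in CMPs, with an edgeR adjusted p of 0.0136. It was 0.00173 without CMP library 2 and 0.00876 without GMP library 1. Summed over the list, the level was 4215, 2989.6, 2292 and 3165 in GMPs and 78.3, 99.5, 110.0 and 169 in CMPs. The GMP sum was highest in library 1 and lowest in library 3. With at least 10 reads required in every library, 7 genes of the list were called, since fewer genes could then be tested. The neutrophil antigens Ly6g and Itgam, given above, moved in the same direction, and the part of more mature cells was not tested.

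The bases before Ltf and Fcnb are shown because both hold TTGCNNAA, the letters read by C/EBP factors, on the reverse strand of the gene. The matches are in capitals, and so is the AGGAAGT of Fcnb. Ltf is on the forward strand at chr9:111019042-111019270 and Fcnb on the reverse strand at chr2:28084886-28085128 (RefSeq, GRCm38.p6).
Ltf: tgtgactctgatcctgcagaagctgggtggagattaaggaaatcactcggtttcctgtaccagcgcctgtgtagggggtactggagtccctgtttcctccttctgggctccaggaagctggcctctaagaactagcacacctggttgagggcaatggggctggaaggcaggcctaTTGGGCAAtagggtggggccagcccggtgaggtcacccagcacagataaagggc
Fcnb: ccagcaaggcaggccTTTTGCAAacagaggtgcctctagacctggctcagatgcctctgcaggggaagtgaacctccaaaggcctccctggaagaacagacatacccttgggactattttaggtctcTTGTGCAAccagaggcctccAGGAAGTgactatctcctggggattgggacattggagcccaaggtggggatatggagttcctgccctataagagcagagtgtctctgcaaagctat
The first base of the match was 75 bases before the RefSeq start in Ltf, and 235 and 123 bases before it in Fcnb. The bases shown stop short of that start in both genes, before the first GENCODE exon. TTGCNNAA was found for 7 of 14 late neutrophil genes with a window. It was found for 17.2% of the genes higher in GMPs, 10.5% of those higher in CMPs and 10.3% of the genes tested, and 12.2% of all genes with a window. No test was run on these shares.

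**Figure D2:**
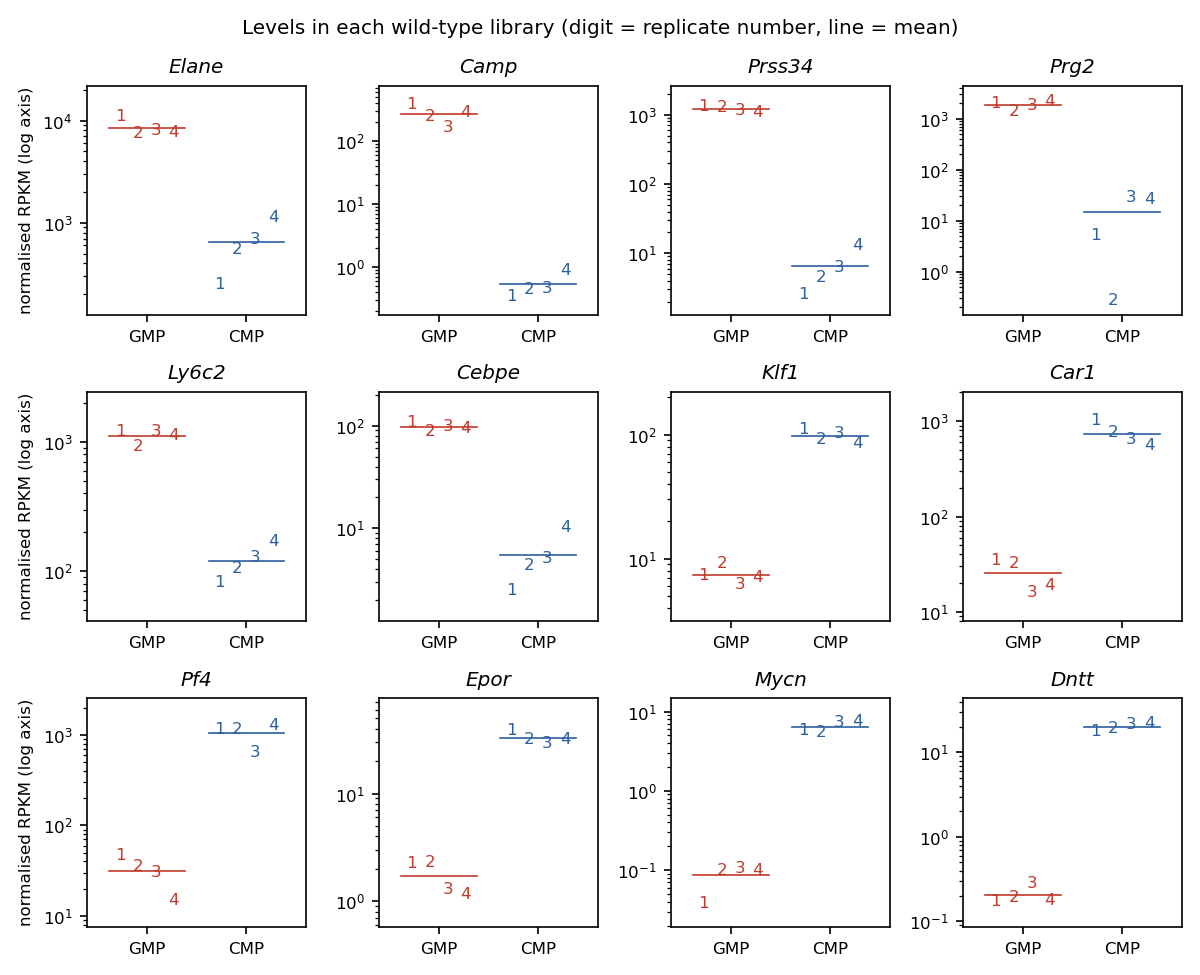
Normalized RPKM of 12 genes in each wild-type library, on log axes with a scale of its own for each gene. Digits are replicate numbers and lines are group means. The groups do not overlap for any of the 12 genes, and the CMP values of Elane and Prg2 spread over a wider range of folds than their GMP values.

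Genes of eosinophil granules were low in CMPs and higher in GMPs. Of 9 genes listed, 6 were higher in GMPs and none in CMPs, with a median log2 fold change of 6.11. Prg2, which encodes the major basic protein, was at 1982, 1361, 1844 and 2197 in GMPs and at 5.09, 0.279, 28.2 and 26.3 in CMPs. Among the CMPs, libraries 3 and 4 were above 1 and 2, and all were below every GMP library. The log2 fold change was 6.95 (SE 1.04, edgeR adjusted p = 0.000584). Without GMP library 1 and CMP library 3 the call was lost, with a log2 fold change of 7.48 (edgeR adjusted p = 0.0142). It was also lost with no filter on low counts and with the length slope as a covariate (edgeR adjusted p = 0.0105 and 0.0107). Epx (eosinophil peroxidase) was at 51.1, 64.1, 108 and 119 and 0.415, 0.0289, 1.57 and 0.63, with a log2 fold change of 6.99 (SE 0.78). In GMPs, libraries 3 and 4 were the higher ones. Prg3, a paralogue of Prg2 on the same stretch of chromosome 2 (from 84988215 to 84993886, with Prg2 from 84980461 to 84983632), had a log2 fold change of 6.58.

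The eosinophil-associated ribonucleases Ear1, Ear2 and Ear6 had log2 fold changes of 6.11, 5.60 and 7.07. They are near-identical copies on chromosome 14, and since only uniquely aligned reads were counted their levels are uncertain. None of the 3 receptors was called. Il5ra, the interleukin-5 receptor chain, was at 0.303 to 0.642 in GMPs and 0 to 0.12 in CMPs, just outside the threshold (edgeR adjusted p = 0.0104). Without CMP library 1 or GMP library 1 the adjusted p was 0.00297 and 0.0091. Siglecf was at 9.94 to 14.1 and 6.7 to 9.1, and Ccr3 at 0.0969 to 0.253 and 0.0825 to 0.826. Without GMP library 1 and CMP library 3, 5 genes of the list were called, and 2 were called where every library had to hold at least 10 reads.

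Genes of basophils and mast cells were also mostly higher in GMPs. Of 13 genes, 11 could be tested, of which 9 were higher in GMPs and 1 in CMPs, with a median log2 fold change of 3.14. Prss34, a basophil serine protease, was at 1302, 1271, 1163 and 1092 in GMPs and at 2.52, 4.41, 6.17 and 13.1 in CMPs. Its log2 fold change was 7.55 (SE 0.50, edgeR adjusted p = 3.11e-06). Mcpt8, another basophil protease, was at 852, 767, 689 and 662 and 25.3, 32.9, 21.6 and 45.7, with a log2 fold change of 4.58 (SE 0.24). Both proteases varied little between the GMP libraries. Hdc, which makes histamine from histidine, had a log2 fold change of 3.14, Gzmb (granzyme B) of 4.82, and Alox5, the enzyme that begins leukotriene synthesis, of 2.39.

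Chains of the high-affinity IgE receptor were higher in GMPs. Fcer1a, the ligand-binding chain, was at 96.3, 62.6, 72.2 and 67.8 in GMPs and 2.92, 3.41, 6.41 and 7.6 in CMPs. Ms4a2, the β chain, was at 39.3, 38.9, 31.9 and 28.6 and 4.99, 7.04, 7.58 and 6.23. Their log2 fold changes were 3.89 (SE 0.32, edgeR adjusted p = 1.01e-05) and 2.44 (SE 0.17, edgeR adjusted p = 3.4e-06). Cpa3, a carboxypeptidase of mast cell granules, was already at 63.3 to 97.8 in CMPs and had a log2 fold change of 1.71. Cma1, a mast cell chymase, had no read in any CMP library and between 45 and 352 reads in the GMP libraries, at 5.77, 5.41, 0.956 and 0.781. Libraries 1 and 2 were above libraries 3 and 4, and against the floor the GMP level was at least 52.5-fold higher. With the length slope as a covariate its call was lost (edgeR adjusted p = 0.0242). The exceptions were Il1rl1, the interleukin-33 receptor, with a log2 fold change of -1.31 and thus higher in CMPs, and the vesicle transporter Slc18a2 at -0.86, below the fold limit. The tryptase Tpsb2 did not pass the filter on low counts, and Tpsab1 had no read.

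The bases before Ms4a2 are shown because they hold AGATAA, the letters read by GATA factors, 3 times. It lies on the reverse strand at chr19:11623720-11623969 (RefSeq, GRCm38.p6), and the matches of either strand are in capitals.
Ms4a2: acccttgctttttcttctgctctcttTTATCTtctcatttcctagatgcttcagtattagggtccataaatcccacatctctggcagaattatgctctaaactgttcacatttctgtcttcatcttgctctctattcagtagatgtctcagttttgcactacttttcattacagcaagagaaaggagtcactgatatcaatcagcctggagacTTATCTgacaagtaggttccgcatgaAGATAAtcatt
AGATAA was found for 6 of 11 genes of mast cells and basophils with a window. The share was 10.2% among the genes higher in GMPs, 12.3% among those higher in CMPs, 8.21% among the genes tested and 12.7% among all genes with a window.

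Monocyte genes were divided. Of 14 genes, 5 were higher in GMPs, none was higher in CMPs and 9 were not called, with a median log2 fold change of 0.53. Ly6c2, the surface antigen of classical monocytes, was at 1192, 921, 1211 and 1124 in GMPs and 82.2, 105, 128 and 169 in CMPs. Its log2 fold change was 3.22 (SE 0.22, edgeR adjusted p = 3.4e-06), with groups far from overlapping. Klf4, a transcription factor of monocytes, was at 2.92, 4.25, 7.1 and 7.89 and 0.361, 0.27, 0.86 and 1.04, a log2 fold change of 3.15. F13a1 (coagulation factor XIII), Fn1 (fibronectin) and Csf1r, the receptor for M-CSF, had log2 fold changes of 1.24, 1.87 and 1.08. With each library's length slope as a covariate, 3 of the 14 were called, without Klf4 (edgeR adjusted p = 0.0103) and Csf1r, whose log2 fold change was then 0.80. With library size alone as the scaling, that of Csf1r was 0.94, also below the fold limit, and with the 50 most abundant genes left out of that size it was 0.999. Lyz2 (lysozyme), Ly86, Ms4a6c and Ccr2 were well read in both populations, at 217 to 332 in GMPs and 141 to 234 in CMPs for Lyz2, and none was called.

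Subunits of the phagocyte oxidase, which makes superoxide, were mostly higher in GMPs, with 4 of 6 called. Cybb, the catalytic subunit, was at 13.1, 15.6, 16.4 and 16.2 in GMPs and 1.32, 1.2, 2.01 and 1.64 in CMPs, a log2 fold change of 3.32 (SE 0.19, edgeR adjusted p = 1.29e-06). The cytosolic subunits Ncf1 and Ncf4 had log2 fold changes of 1.95 and 1.26, and the GTPase Rac2 of 1.06. The value of Rac2 was below the fold limit, at 0.92, with library size alone as the scaling, at 0.98 when the 50 most abundant genes were left out of that size, and at 0.96 with the length slope as a covariate. Cyba, the partner of Cybb in the membrane, was at 344 to 600.1 in GMPs and 235 to 459 in CMPs, with overlapping groups and a log2 fold change of 0.29.

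Of 8 dendritic cell genes tested, 3 were higher in CMPs and none in GMPs. Flt3, the receptor of FLT3 ligand on early progenitors and dendritic cell precursors, was at 6.36, 5.7, 6.52 and 4.33 in GMPs and 39, 32.6, 41.4 and 32.6 in CMPs. The log2 fold change was -2.65 (SE 0.16, edgeR adjusted p = 1.73e-06). Zbtb46, a transcription factor of classical dendritic cells, was at 0.107 to 0.171 and 1.07 to 2.03. Clec9a, a receptor of the same cells, was at 0.138 to 0.503 and 0.559 to 1.28. The call of Clec9a was lost without any 1 of CMP libraries 1 to 3 or GMP libraries 2 to 4, with edgeR adjusted p from 0.0105 to 0.0245. The MHC class II genes H2-Aa, H2-Ab1 and H2-Eb1 and the invariant chain Cd74 were read in both populations and were not called. Siglech, Batf3, Irf4 and Ccr9 did not pass the filter.

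The transcription factors of the granulocyte and monocyte branch were higher in GMPs in 9 of 16 cases, and in CMPs in none, with a median log2 fold change of 1.21. The lowest log2 fold change of the list was -1.48, that of a gene not called. Of the C/EBP family, Cebpe, which acts late in granulopoiesis, was at 107, 88.3, 97.2 and 94.2 in GMPs and 2.48, 4.35, 5.11 and 10.1 in CMPs. Its log2 fold change was 4.15 (SE 0.37, edgeR adjusted p = 1.69e-05), and CMP library 4 was the highest of the CMPs. Cebpa, which is needed for GMPs to form, was at 131, 173, 192 and 181 and 39.2, 40.5, 61.7 and 59.2, a log2 fold change of 1.77 (SE 0.19). Cebpb and Cebpd had log2 fold changes of 2.33 and 1.84, while Cebpg was at 10.6 to 11.6 in GMPs and 12.2 to 13.5 in CMPs.

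Gfi1, a repressor needed for neutrophil development, was at 38.3, 44.3, 36.9 and 35.1 in GMPs and 3.7, 5.73, 5.54 and 7.27 in CMPs, a log2 fold change of 2.81 (SE 0.19, edgeR adjusted p = 3.55e-06). Spi1, which encodes PU.1, was at 131, 141, 157 and 151 and 51.6, 50.5, 63.5 and 70, a log2 fold change of 1.32 (SE 0.13). Both were read in every CMP library. The helix-loop-helix inhibitors Id1 and Id2 and the clock gene Per3 had log2 fold changes of 2.36, 1.10 and 1.43. The call of Id1 was lost without GMP library 1 and CMP library 3 (edgeR adjusted p = 0.0122), and that of Id2 without any 1 of CMP libraries 1 and 2 or GMP libraries 2 and 4, with edgeR adjusted p from 0.0187 to 0.0277. Irf8, a factor of monocytes and dendritic cells, was at 116 to 143 in GMPs and 75.2 to 82.7 in CMPs, a log2 fold change of 0.77 below the fold limit. Irf5, Myb, Zeb2 and Etv6 had log2 fold changes between 0.54 and 0.80 and were not called.

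Some receptors for myeloid growth factors were higher in GMPs. Of 16 cytokine receptor genes, 7 were higher in GMPs and none in CMPs, with a median log2 fold change of 0.82. Csf2ra, the GM-CSF receptor chain, was at 42.8, 47.2, 44.7 and 40.4 in GMPs and 9.23, 9.26, 12.3 and 12 in CMPs, a log2 fold change of 2.05 (SE 0.14, edgeR adjusted p = 3.27e-06). The signalling chains Csf2rb and Csf2rb2, shared with or specific to interleukin-3, had log2 fold changes of 1.99 and 2.15. They are close copies, so reads could be split between them. Csf3r, the G-CSF receptor, had a log2 fold change of 1.58, Il6ra of 1.26, Tnfrsf1a of 1.18 and Ifngr2 of 1.12. Il6ra was below the fold limit with the length slope as a covariate, at 0.87, and Ifngr2 with library size alone as the scaling, at 0.99. Il17ra was at 11.9 to 15 in GMPs and 21.5 to 24.3 in CMPs, a log2 fold change of -0.71 that was below the fold limit.

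Among 16 genes of adhesion and homing, 3 were higher in GMPs and none in CMPs. The share called was 18.8%, beside 12.8% of all genes tested. Cd177, a surface protein of neutrophils, was at 5.89, 6.92, 4 and 6.72 in GMPs and 0, 0, 0.0291 and 0.0723 in CMPs, with 8 reads at most in a CMP library. Ccr1, a chemokine receptor, was at 6.4 to 11.5 and 0.836 to 2.03, and Cd93 at 37.1 to 61 and 20.3 to 34.7. The call of Cd93 was lost without any 1 of CMP libraries 1, 2 and 4 or GMP library 4, with edgeR adjusted p from 0.0101 to 0.0123. With library size alone as the scaling its log2 fold change was 0.98, and with the length slope as a covariate 0.72, both below the fold limit. The integrin chains Itga4, Itga5, Itga6, Itgb1, Itgb2 and Itgb7 and the homing receptor Cxcr4 were all well read and none was called. Vcam1, counted among the markers of stroma, was at 7.63, 6.74, 6.67 and 6.31 in GMPs and 0.254, 0.597, 0.491 and 0.591 in CMPs, a log2 fold change of 3.84.

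**Figure D3:**
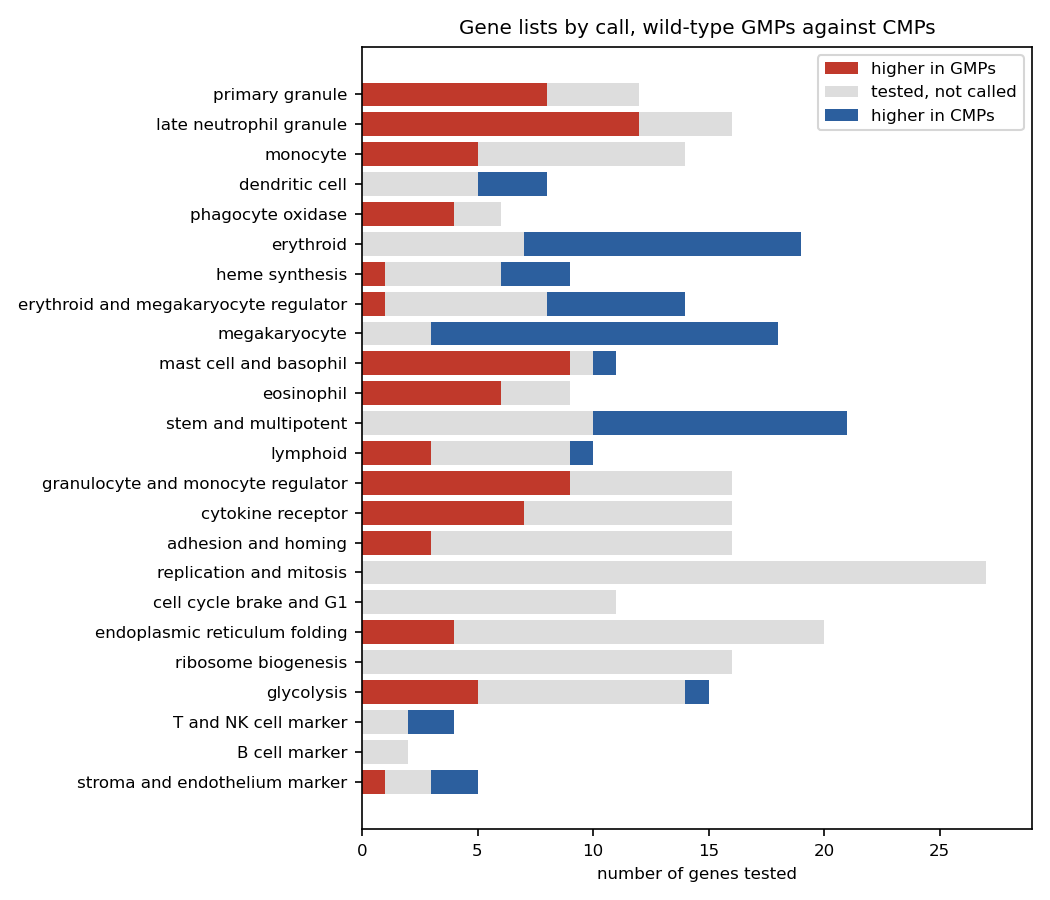
Number of genes tested in each of 24 gene lists, by call. Red are genes higher in GMPs, blue genes higher in CMPs and grey genes tested but not called. Granule, mast cell and eosinophil lists hold red bars and 1 blue gene, Il1rl1, erythroid, megakaryocyte and stem cell lists hold blue and grey bars, and the 27 replication genes are all grey.

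On the CMP side, erythroid genes formed a large group. Of 19 genes tested, 12 were higher in CMPs and none in GMPs, with a median log2 fold change of -3.52. Car1 (carbonic anhydrase 1), at 35, 31.8, 15.9 and 18.9 in GMPs and 1012, 756, 642 and 551 in CMPs, was among the most abundant. Its log2 fold change was -4.85 (SE 0.31, edgeR adjusted p = 2.5e-06). Within GMPs, libraries 1 and 2 were above libraries 3 and 4. Epor, the erythropoietin receptor, was at 2.22, 2.28, 1.29 and 1.14 and 38.5, 31.9, 29.4 and 31.7, a log2 fold change of -4.23 (SE 0.24, edgeR adjusted p = 1.45e-06). Aqp1, a water channel, Tspo2, a sterol-binding protein of erythroid cells, and Rhag, a Rhesus-complex protein, had log2 fold changes of -4.79, -4.61 and -4.25.

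Genes of later erythroid stages were low in both populations. Hbb-bs, an adult β-globin gene, was at 6.59, 3.44, 1.23 and 0.802 in GMPs and 13.3, 10.1, 3.57 and 6.29 in CMPs, with overlapping groups. Hba-a1 was at 3.8, 2.27, 0.508 and 1.47 and 9.91, 8.29, 3.41 and 3.97. The globin genes have near-identical copies, so that uniquely aligned reads understate their level. Slc4a1, the anion exchanger band 3, was at 0.195 to 0.972 and 0.455 to 1.71. In all 3 genes libraries 1 and 2 of each population held the higher values. Without GMP library 1, Hba-a1 and Hbb-bs were called higher in CMPs, with log2 fold changes of -2.12 and -2.13. The transferrin receptor Tfrc was at 16.5 to 19.4 in GMPs and 18.5 to 29.7 in CMPs and was not called.

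Heme synthesis genes differed in both directions, with 1 of 9 higher in GMPs and 3 in CMPs. Alas1, the housekeeping form of the first enzyme, was higher in GMPs, at 219.6, 229, 233 and 232 against 26.9, 32, 42.9 and 46.7 in CMPs, a log2 fold change of 2.64 (SE 0.18, edgeR adjusted p = 3.37e-06). Alas2, its erythroid form, was hardly read and was not called. The later enzymes Alad, Urod and Cpox were higher in CMPs, with log2 fold changes of -1.56, -1.17 and -1.06. Without CMP library 1 the value of Cpox was -0.98, below the fold limit, as was that of Urod with the length slope as a covariate, at -0.92, or with a length trend as an offset, at -0.96. Uros, Ppox and Fech had log2 fold changes between -0.86 and -0.33 and were not called. Myeloperoxidase and the phagocyte oxidase are themselves heme proteins.

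Megakaryocyte and platelet genes were mostly higher in CMPs. Of 18 genes, 15 were higher in CMPs and none in GMPs, with a median log2 fold change of -2.87. Pf4 (platelet factor 4) was at 46.6, 35, 29.9 and 14.9 in GMPs and 1160.2, 1148, 632 and 1277 in CMPs, a log2 fold change of -5.04 (SE 0.36, edgeR adjusted p = 4.53e-06). CMP library 3 was the lowest of the CMPs, and GMP library 4 the lowest of all. F2r, a thrombin receptor, had a log2 fold change of -5.01 and Vwf, von Willebrand factor, of -3.91.

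The platelet receptor complex for von Willebrand factor is made of Gp1ba, Gp1bb, Gp5 and Gp9. Their log2 fold changes were -2.54, -4.09, -4.13 and -3.15. The chains of the fibrinogen receptor, Itga2b (CD41) and Itgb3, had log2 fold changes of -2.10 and -2.17, with Itga2b at 22.7 to 35.3 in GMPs and 102 to 138 in CMPs. The 3 genes not called were Gp6, Tubb1 and Ppbp. Ppbp, a platelet chemokine, was at 24.1, 17.2, 5.28 and 2.86 in GMPs and 80.2, 79.5, 10.5 and 20.4 in CMPs, and the groups overlapped.

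The bases before Epor and Gp5 are shown because both hold AGATAA on the reverse strand of the gene, like Ms4a2 above, which differed in the opposite direction. The matches are in capitals. Epor lies on the reverse strand at chr9:21963577-21963826 and Gp5 on the reverse strand at chr16:30310782-30311031 (RefSeq, GRCm38.p6).
Epor: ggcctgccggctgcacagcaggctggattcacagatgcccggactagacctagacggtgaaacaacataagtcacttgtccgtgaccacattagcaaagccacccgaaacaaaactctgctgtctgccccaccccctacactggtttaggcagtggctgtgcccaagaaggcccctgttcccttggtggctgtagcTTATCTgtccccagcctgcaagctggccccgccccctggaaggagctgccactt
Gp5: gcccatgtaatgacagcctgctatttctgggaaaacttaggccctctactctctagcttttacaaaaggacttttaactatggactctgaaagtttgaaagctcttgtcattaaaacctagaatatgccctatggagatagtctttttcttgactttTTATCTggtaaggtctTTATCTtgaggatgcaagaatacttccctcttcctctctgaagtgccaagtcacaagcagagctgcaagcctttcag
The first base of the match was 54 bases before the start in Epor, and 93 and 77 bases before it in Gp5. AGATAA was found for 5 of 14 erythroid genes and 4 of 14 megakaryocyte genes with a window. Among lists mostly higher in GMPs, it was found for 4 of 14 late neutrophil, 2 of 8 eosinophil and 0 of 10 primary granule genes. The bases of Ltf shown above also hold these letters, left in lower case there. CCACACC, the letters read by erythroid Krüppel-like factors, was found for 2 of the 14 erythroid genes, 9.21% of the genes higher in CMPs, 10.3% of those higher in GMPs and 8.75% of the genes tested, and 8.72% of all genes with a window.

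The regulators of the erythroid and megakaryocyte branch were higher in CMPs in 6 of 14 cases. Gata1 was at 11.2, 10.6, 9.28 and 8.29 in GMPs and 91.6, 88.9, 77.2 and 74 in CMPs, a log2 fold change of -3.06 (SE 0.13, edgeR adjusted p = 4.8e-07). Klf1, the erythroid Krüppel-like factor, was at 7.32, 9.11, 6.23 and 7.05 and 110.2, 91.9, 103 and 85.3, a log2 fold change of -3.70 (SE 0.15, edgeR adjusted p = 4.14e-07). Both differed by much more than the spread of either group. Zfpm1 (FOG1, the partner of GATA1), Gfi1b, the paralogue of Gfi1, and Tal1 had log2 fold changes of -3.21, -3.32 and -2.02. Gata2 was at 25.4, 46.4, 39.8 and 35.7 in GMPs and 40.2, 34.3, 51.6 and 43.6 in CMPs, with overlapping groups and a log2 fold change of -0.19 (SE 0.19). Fli1, Runx1, Lmo2, Ldb1, Lyl1 and Nfe2 were below the threshold, with log2 fold changes from -0.71 to 0.56.

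The 1 gene of that list that was higher in GMPs was Zbtb16 (PLZF), at 1.11, 2.36, 1.91 and 2.05 against 0.402, 0.269, 0.992 and 0.599, with an edgeR adjusted p of 0.00629. The call was lost without any 1 of CMP libraries 1, 2 and 4 or GMP libraries 2, 3 and 4, with edgeR adjusted p from 0.0147 to 0.0247. Spi1 and Gata1, which are known to restrain each other, are compared here on the per-length scale. In GMPs, Spi1 was at 131 to 157 and Gata1 at 8.29 to 11.2, and in CMPs Spi1 was at 50.5 to 70 and Gata1 at 74 to 91.6.

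**Figure D4:**
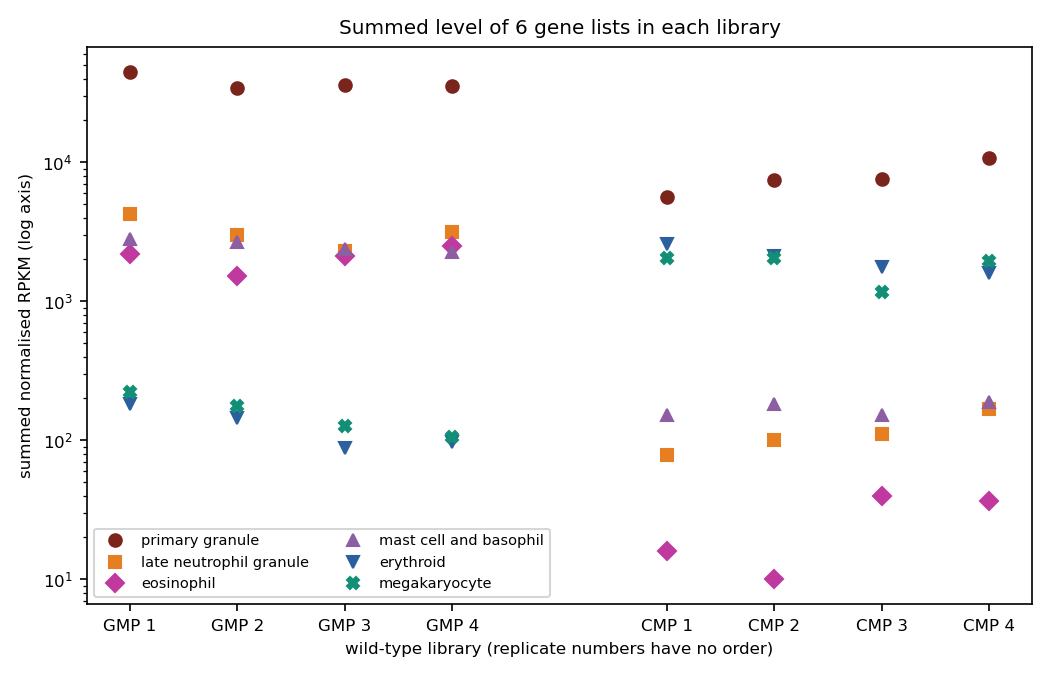
Summed normalized RPKM, on a log axis, of 6 gene lists in each wild-type library. Each symbol is 1 library. Granule, eosinophil and mast cell sums are higher in every GMP library than in any CMP library, erythroid and megakaryocyte sums lower, and the eosinophil sum spreads most in CMPs, from 10.1 to 39.5.

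Genes of stem cells and multipotent progenitors were higher in CMPs in 11 of 21 cases and in GMPs in none, with a median log2 fold change of -1.86. Mycn, a MYC family factor, was at 0.0379, 0.1, 0.106 and 0.0998 in GMPs and 5.71, 5.4, 7.33 and 7.41 in CMPs, a log2 fold change of -6.19 (SE 0.28, edgeR adjusted p = 5.13e-07). Meis1, a cofactor of HOX proteins, had a log2 fold change of -1.97. Hoxa10 had a log2 fold change of -4.03, whereas Hoxa9 was at 4.21 to 6.77 in GMPs and 5.22 to 6.8 in CMPs and was not called.

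Some surface and signalling genes of stem cells were higher in CMPs. Slamf1 (CD150) was at 0.244, 0.117, 0.139 and 0.0623 in GMPs and 2.45, 2.77, 2.11 and 0.938 in CMPs, Esam at 0.626, 0.46, 0.413 and 0.49 and 10.1, 11.3, 7.23 and 8.33, and Tek, the angiopoietin receptor, at 0.361, 0.457, 0.491 and 0.365 and 2.78, 2.56, 3.61 and 2.58. Their log2 fold changes were -3.87, -4.20 and -2.77. All 3 were read in every CMP library and were low in GMPs. Hlf had a log2 fold change of -1.37 and Angpt1 of -1.86. Procr, Cd48, Cd27, Nrip1, Ifitm1 and Hoxb4 were not called, nor were Mecom and Fgd5, both low, at 0.0492 to 0.184 and 0.00612 to 0.0291 in GMPs and 0.231 to 0.553 and 0.0447 to 0.155 in CMPs. Both were called higher in CMPs by DESeq2. Mecom was also called so with all 16 progenitor libraries in 1 fit, with the length slope as a covariate and with a length trend as an offset. With at least 10 reads required in every library, 7 genes of the list were called.

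Of 15 lymphoid genes, 10 could be tested. Dntt, which encodes terminal transferase and marks lymphoid priming, was the gene with the largest difference on the CMP side among genes at 5 or more in either population. It was at 0.17, 0.194, 0.278 and 0.175 in GMPs and 17.7, 19.2, 21.2 and 22 in CMPs, a log2 fold change of -6.59 (SE 0.20, edgeR adjusted p = 1.04e-07). Its groups did not overlap. Igll1, Ikzf3 and Notch1 were higher in GMPs, Notch1 at 2.97, 6.6, 6.02 and 6.6 against 2.01, 2.2, 2.64 and 2.02. With the length slope as a covariate the log2 fold change of Notch1 was 0.84, below the fold limit. Igll1, a surrogate light chain gene, was at 0.681 to 2.98 and 0 to 0.282, with an edgeR adjusted p of 0.00984. Its call was lost with any 1 of the 8 libraries left out, the adjusted p then being at most 0.023. Rag1, Ebf1, Pax5, Cd79a and Ly6d did not pass the filter.

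Genes of proliferation were not called in either direction. None of 27 genes for replication and mitosis and none of 11 genes for G1 and its brakes was called, with medians of 0.13 and -0.08. Of all genes tested, 12.8% were called. Mcm5, a subunit of the replicative helicase, was at 191, 181, 196 and 191 in GMPs and 172, 179.5, 174 and 179.6 in CMPs. Aurkb (Aurora kinase B) was at 105 to 117 and 77.8 to 83.4, and Pcna, the sliding clamp, at 15.6 to 18.5 and 21.8 to 30.3. Mki67, a marker of cycling cells, had a log2 fold change of 1.21 and levels of 5.95, 16.8, 16.2 and 16.7 and 5.15, 5.1, 9.87 and 4.23, and Ccne1 (cyclin E1) a log2 fold change of -0.98 and non-overlapping levels of 11.5 to 12.6 and 21.1 to 26.7. Aurkb, Pcna and Ccne1 had edgeR adjusted p of 0.00204, 0.00449 and 0.000105 and missed only the fold limit. Mki67 is a long transcript, and its lowest GMP value and highest CMP value were those of GMP library 1 and CMP library 3. Mki67 was called with a log2 fold change of 1.47 without GMP library 1 and 1.58 without CMP library 3. Ccne1 was called, with -1.005, -1.006 and -1.004, without CMP library 3, CMP library 4 or GMP library 4. Without both GMP library 1 and CMP library 3, 3 of the 27 genes were higher in GMPs and 1 was higher in CMPs. Cdkn1c, a brake of quiescent stem cells, was at 0.102 to 0.164 in GMPs and 0.265 to 0.519 in CMPs, a log2 fold change of -1.55 with an edgeR adjusted p of 0.014. It was called higher in CMPs by DESeq2, with library size alone as the scaling and with at least 10 reads required in every library.

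Of 16 ribosome biogenesis genes none was called, with a median log2 fold change of 0.0039. Ncl (nucleolin) was at 86.3 to 139.6 in GMPs and 67.2 to 116 in CMPs, and Npm1 (nucleophosmin) at 24 to 35.9 and 41.9 to 51. Of 20 genes for protein folding in the endoplasmic reticulum, which had a median log2 fold change of 0.78, 4 were higher in GMPs and none in CMPs. The share called was 20%, beside 12.8% of all genes tested. The 4 were Ero1l, Hyou1, Pdia4 and Hsp90b1. Ero1l, which reoxidizes disulfide isomerases, was at 16, 15.9, 18.2 and 18.1 in GMPs and 5.44, 6.02, 7.15 and 6.62 in CMPs, a log2 fold change of 1.45 (SE 0.12, edgeR adjusted p = 1.28e-05). Xbp1, a factor of the unfolded protein response, had a log2 fold change of 0.98, just below the fold limit. It was called without CMP library 3, CMP library 4 or GMP library 3, with 1.03, 1.02 and 1.01. The number called ranged from 2 to 7 over the alternatives, with 2 without CMP library 1, CMP library 2 or GMP library 4.

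Of 15 glycolysis genes tested, 5 were higher in GMPs and 1 in CMPs. Of the hexokinases, Hk3, the myeloid form, was at 157, 191, 220.3 and 209 in GMPs and 37.6, 43.9, 62.3 and 57.2 in CMPs, a log2 fold change of 1.97 (SE 0.19, edgeR adjusted p = 2.63e-05). Hk2 had a log2 fold change of 1.86, and Hk1 was not called. Gpi1, Pfkp and Pkm had log2 fold changes of 1.15, 1.33 and 1.40. The glucose transporter Slc2a3 was the gene higher in CMPs, with -1.13, while Slc2a1 was at 8.25 to 8.94 and 6.46 to 7.8. Gapdh, Pgk1, Pgam1 and Eno1 have near-identical copies, so their levels are uncertain.

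By size alone, the 12 genes farthest toward GMPs among those at 5 or more were all granule, surface or secreted products of neutrophils, basophils and eosinophils named above. The 12 farthest toward CMPs were more diverse. Besides Dntt, Mycn, Pf4, F2r and Car1 they held Slc25a21, a mitochondrial carrier, with a log2 fold change of -5.53, the cation channel Trpc6 with -5.41, the potassium channel Kcnj5 with -4.96, Prss50 with -5.22 and the transporter Slc35d3 with -5.20. Trpc6 was at 0.109, 0.209, 0.113 and 0.0736 in GMPs and 6.2, 6.69, 4.68 and 4.47 in CMPs. Slc25a21 was at 0.545, 0.251, 0.3 and 0.283 and 21.3, 17.9, 13.1 and 12. The other 2 of the 12 are annotated as antisense RNAs, Gm28857, which overlaps AA986860, and Gm15915, which overlaps Ntn4. Gm15915 was at 2.15, 2.22, 1.43 and 1.95 and 80.3, 61.1, 64 and 51.8. Whether the counting used strand is not given in the sources used here, so reads of these 2 genes and of their partners cannot be told apart.

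Protein-coding genes made up 12186 of the genes tested, of which 877 were higher in GMPs and 880 in CMPs, 14.4% in all. Of 282 long intergenic noncoding RNAs, 13 were higher in GMPs and 28 in CMPs, 14.5% in all. The share called among all genes tested was 12.8%. Of 1594 processed pseudogenes, 2.26% were called.

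The same comparison was made in Prss57-/- mice, whose 8 libraries share none with the wild type. Prss57, the deleted gene, had 6 to 25 reads in the Prss57-/- GMP libraries and 1 read in each Prss57-/- CMP library, against 18064 to 26556 and 2261 to 3926 reads in the wild type. There, 1259 of 14959 genes (8.42%) were called, 604 higher in GMPs and 655 higher in CMPs (edgeR). Of the wild-type calls, 1160 (60.5%) were called in the same direction in Prss57-/- mice, which is 92.1% of the Prss57-/- calls, and 0 were called in the opposite direction. Of 1880 wild-type calls that could be tested, 1878 had the same sign. The median log2 fold changes were 1.85 and 1.31 for primary granule genes, of which 8 were called in the wild type and 4 in Prss57-/- mice, 6.15 and 5.20 for late neutrophil genes, 6.11 and 5.93 for eosinophil genes, -3.52 and -3.74 for erythroid genes and -2.87 and -3.12 for megakaryocyte genes, wild type first. Prss57 itself is among the 8 and in the wild-type median of that list. As the deleted gene it had no value in Prss57-/- mice, so the primary granule genes compared are not the same in both genotypes. For single genes, the log2 fold changes were 3.72 and 2.91 for Elane, 9.04 and 6.91 for Camp, -6.59 and -7.28 for Dntt and -3.70 and -3.56 for Klf1.

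The number called in Prss57-/- mice moved with single libraries. It was 2266 without Prss57-/- CMP library 1, and 829, 807 and 785 without CMP library 3, GMP library 2 and GMP library 3. Prss57-/- CMP library 2 had a length slope of -0.39. Tested as an interaction of genotype and cell type, none of 15900 genes differed at an adjusted p under 0.01 (edgeR). At an unadjusted p under 0.05 there were 169 genes, 1.06% of those tested. Limma voom and DESeq2 also found none, with 129 and 255 genes at an unadjusted p under 0.05. This does not show that the differences were equal in both genotypes.

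**Figure D5:**
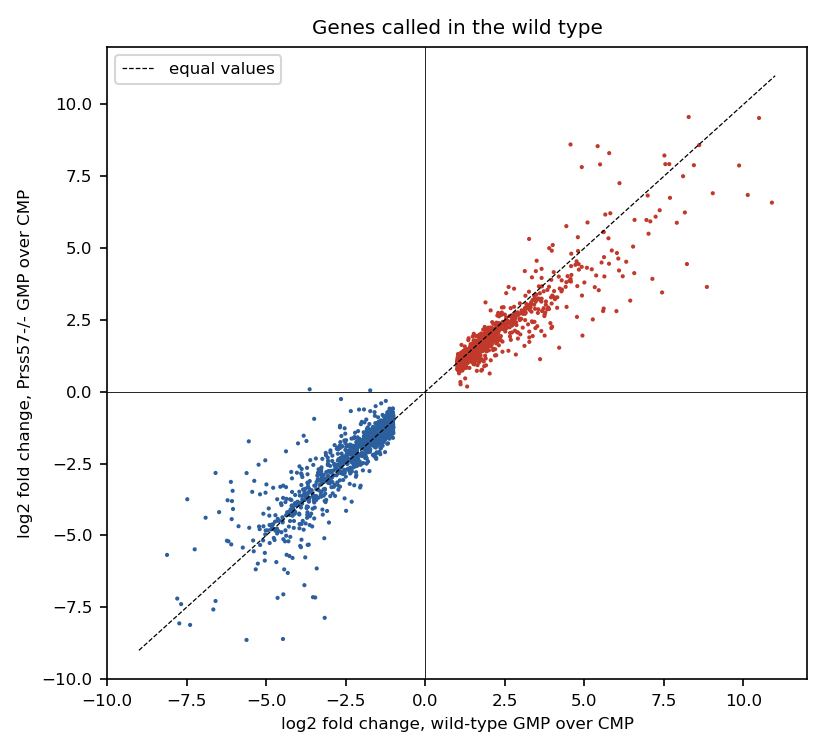
Log2 fold change of GMPs over CMPs in wild-type mice (x axis) and in Prss57-/- mice (y axis), for the 1880 genes called in the wild type and tested in both. Red genes were higher in wild-type GMPs and blue genes in wild-type CMPs, and the dashed line marks equal values. All but 2 of the genes have the same sign in both.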

How the data were processed

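RNA of sorted wild-type and Prss57-/- GMPs and CMPs was sequenced by the study as single-end stranded total RNA libraries in 1 run. Per the file headers and the study's methods, the authors aligned reads to GRCm38 with GSNAP in the HTSeqGenie pipeline and deposited, for each gene, the count of uniquely aligned reads within exons and a normalized RPKM, which is RPKM divided by a size factor. Whether counting used strand is not given in the sources used here. Transcripts with near-identical copies are undercounted by this procedure. The authors' processing notes name GRCm38 and GSNAP.

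From the deposited counts, wild-type GMPs were compared with wild-type CMPs by edgeR 4.0.16 (R 4.3.3) with TMM scaling, filterByExpr and robust quasi-likelihood tests. A gene was called where its p, adjusted after Benjamini and Hochberg, was below 0.01 and it differed 2-fold or more. SE is the log2 fold change divided by the square root of the F statistic. All p-values measure the spread between these libraries, which may be technical, since the labels do not say that libraries came from separate animals, although the study calls its GMP samples biological replicates. Only the 16 progenitor libraries were used, and the mast cell libraries were not. The fit was tested on simulated counts with known changes, in which 42 of 100 genes changed 2-fold and 78 of 99 changed 4-fold passed the adjusted p, and 1 of 14831 unchanged genes did. Far fewer genes changed there than were called in the data, and the fold limit was not applied. These shares therefore do not give the power of the calls reported here. Alternatives used limma 3.58.1 (voom), DESeq2 1.42.0, other scalings and filters, a replicate block, all 16 progenitor libraries in 1 fit and single libraries left out. The others were added after the data were seen, namely a length slope as covariate, a length trend as offset, and leaving out both GMP library 1 and CMP library 3. Genes named in the text are members of the lists, Prss57, the 12 called genes with the largest fold in each direction at a level of at least 5, and the 10 most abundant of each group. Some members of the lists are not reported here by name, and the counts of the lists include them. The groups compared and the lists were chosen with earlier results of these data known. Promoter windows came from RefSeq for GRCm38.p6. Depth limits genes with few reads, and floors of 3 reads per library cover counting error only.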

Additional observations from a re-analysis of the deposited data

Results flagged for a closer look

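The values of named genes with more than 10 reads in 1 library of a group made 326 sets of 4 libraries. In 24 of them a library stood apart from the other 3 by Dixon's test. Chance alone gives about 5% of sets, so part of the 24 can be chance. The sets share the same libraries and are not independent. Most of the 24 were GMP library 1 or CMP library 3, whose length slopes differ from those of their groups.

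GMP library 1 was above the other GMP libraries in Elane (10876 against 7423 to 7989), Ctsg (6103 against 4113 to 4129), Ms4a3 (2546 against 1359 to 1471), Prss57 (198 against 123 to 133), Cd63 (230.3 against 134 to 144), Srgn (1396 against 831 to 864), Urod (74.7 against 52.0 to 53.7) and Slc25a21 (0.545 against 0.251 to 0.2997). It was below them in Mki67 (5.95 against 16.2 to 16.8), Notch1 (2.97 against 6.02 to 6.60), Cd93 (37.1 against 57.2 to 61.0), Ncf1 (97.1 against 119.9 to 124), Meis1 (1.55 against 2.15 to 2.27) and Mycn (0.0379 against 0.0998 to 0.106). All values are normalized RPKM.

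CMP library 3 was above the other CMP libraries in Mki67 (9.87 against 4.23 to 5.15), Meis1 (9.56 against 7.50 to 7.84), Ear2 (0.264 against 0.135 to 0.149), Ear6 (0.769 against 0 to 0.0779) and Ear1 (0.454 against 0 in the others). It was below them in Srgn (422 against 573 to 589). CMP library 4 was the highest in S100a8 (18.1 against 6.72 to 7.46), Lcn2 (2.84 against 0.850 to 1.05) and Ctsc (15.4 against 13.6 to 13.7). GMP library 2 was the highest in Hdc (178 against 149.9 to 153).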

How the results depend on the processing

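The number of genes called between wild-type GMPs and CMPs stayed within 1.5 times of 1918 in all alternatives but 3. It was 3171 (1588 higher in GMPs, 1583 in CMPs) without GMP library 1 and CMP library 3, of which 1819 were among the 1918, 5664 (2843 and 2821) at an adjusted p under 0.05 and any fold, and 888 (355 and 533) at 4-fold or more. With single libraries left out it ranged from 1542 to 2515, the highest being without GMP library 1. DESeq2 called 2279 genes and limma voom 1967. In Prss57-/- mice, DESeq2 called 2156 genes, 1259 of them higher in CMPs. An adjusted p under 0.05 at any fold gave 3222 (1588 and 1634), and 4-fold or more 695 (259 and 436). With single libraries left out the count ranged from 785 to 2266, from 377 to 1125 higher in GMPs and from 408 to 1141 higher in CMPs. The share of calls higher in GMPs was 49.0%, and 38.4% with library size alone as the scaling. Of 121 named genes that were called, 101 were so in each of the 20 or 21 alternatives run for them, and of 45 not called, 25 stayed so. A total of 4 uncalled genes changed sign. Without both libraries, the log2 fold change was -0.038 for Cyba, 0.079 for Gata2 and 0.11 for Kit. For Mcm5 it was -0.011 with library size alone. With single libraries left out Kit ranged from -0.17 to 0.023. The causes were not tested.

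Whether the replicate numbers, which both groups share, pair the libraries is not settled. Deviations from the group means of same-numbered libraries correlated at 0.0158 to 0.224, with a mean of 0.116. Those of other pairs correlated at -0.452 to 0.238, with a mean of -0.040, the lowest being GMP library 1 with CMP library 3. A total of 2 of 8 libraries matched best with their own number. With the replicate block, 2000 genes were called, 1828 of them among the 1918. Of the named genes, it added Ppbp (log2 fold change -1.92), Hba-a1 (-1.79), Hbb-bs (-1.69) and Col1a1 (-4.32) to those called higher in CMPs and Mmp9 (3.56) to those called higher in GMPs.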

Other observations

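Several platelet and erythroid genes differed between libraries of the same population. Ppbp was at 24.1, 17.2, 5.28 and 2.86 in GMPs and 80.2, 79.5, 10.5 and 20.4 in CMPs. Tubb1, the platelet β-tubulin, was at 4.43, 5.46, 2.15 and 1.43 and 15.7, 14.5, 1.82 and 3.33, and Gp6, the collagen receptor of platelets, at 0.234, 0.227, 0.0702 and 0.107 and 0.716, 0.877, 0.198 and 0.237. In each of them, libraries 1 and 2 of both populations were above libraries 3 and 4. The labels do not say what libraries of the same number share, and these genes were chosen after their values were seen.

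Mir6236, among the 10 genes of highest level in GMPs, was at 1797, 2009, 11528 and 1876 in GMPs and 2462, 1833, 1813 and 2373 in CMPs. GMP library 3 stood apart from all others. The gene was not called.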
